A study of Mus musculus with 8 samples.

Results

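The genes described here are the ephrins, their Eph receptors, the semaphorins and the plexins, cell-surface and secreted guidance molecules, measured in skin of Adam10 knockout mice and of wild-type mice. They were chosen by symbol from probe sets annotated to exactly 1 gene, and of several probe sets per gene the brightest was kept. This gave 50 members among 19935 genes, namely 8 ephrins, 13 Eph receptors, 20 semaphorins and 9 plexins. Adam10 encodes a membrane metalloprotease. The series holds 4 arrays of Adam10 knockout skin, with cKO in their titles, and 4 of wild type. The labels give neither a strain, an age or a sex nor the promoter or cell type in which Adam10 was deleted, and they call the material both skin tissue and primary skin cells. The titles carry a P with a number, 67, 68, 69 and 55 on knockout arrays 1 to 4 and 57 to 60 on wild-type arrays 1 to 4, whose meaning the labels do not state.

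Ephrins and Eph receptors signal between touching cells. A-type ephrins are held in the membrane by a lipid anchor and mostly bind EphA receptors, whereas B-type ephrins cross the membrane and mostly bind EphB receptors, and both partners can signal into their own cell. ADAM10 is known to cut A-type ephrins once they are bound to an Eph receptor, which lets the cells part. Semaphorins signal through plexins. Those of class 3 are secreted and mostly need a neuropilin as coreceptor, those of classes 4 to 6 cross the membrane, and the class 7 member has a lipid anchor. In skin these families are known for keratinocyte adhesion and differentiation and for the patterning of vessels and nerves.

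Of the 50 members, 9 rose and 1 fell in knockout skin at a limma adjusted p under 0.05. The genes that rose were the class 3 semaphorins Sema3c, Sema3d and Sema3e, the membrane semaphorins Sema4b and Sema5a, the ephrins Efna1 and Efnb1, and the receptors Ephb3 and Ephb4. Sema6b fell. The shares were 18.0% higher and 2.00% lower among members, against 6.41% higher and 2.34% lower, 8.75% in either direction, among all genes tested. Among the 42 members above the array median on all 8 arrays, 9 (21.4%) rose, against 10.9% of the 10866 genes of that kind. The median difference (knockout minus wild type) was 0.13 on the log2 scale for members and 0.0027 for all genes. Among those above the array median on all 8 arrays it was 0.21 for members and 0.09 for all genes. The median of all 50 members was 0.05 with array weights and -0.11 with the basal keratinocyte marker mean as a covariate. By role, 7 of 28 ligands and 2 of 22 receptors rose. An unadjusted p under 0.05 was reached by 20 of the 50 members and by 5008 of all 19935 genes. Among those above the array median on all 8 arrays, 20 of 42 members and 3870 of 10866 genes reached it. The split depended on scaling, with 9 members higher and 1 lower as deposited. Median centring gave 13 and 0, cyclic loess 6 and 3, and quantile normalization 6 and 2. The shares of all genes higher and lower were then 12.3% and 1.43%, 3.86% and 2.92%, and 4.25% and 2.49%. With centring the median difference over all genes became 0.10, and differences relative to it are smaller by that amount. Of the calls over all genes, 73.2% were higher as deposited, 89.6% with centring, 56.9% with loess and 63.0% with quantiles.

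**Figure D1:**
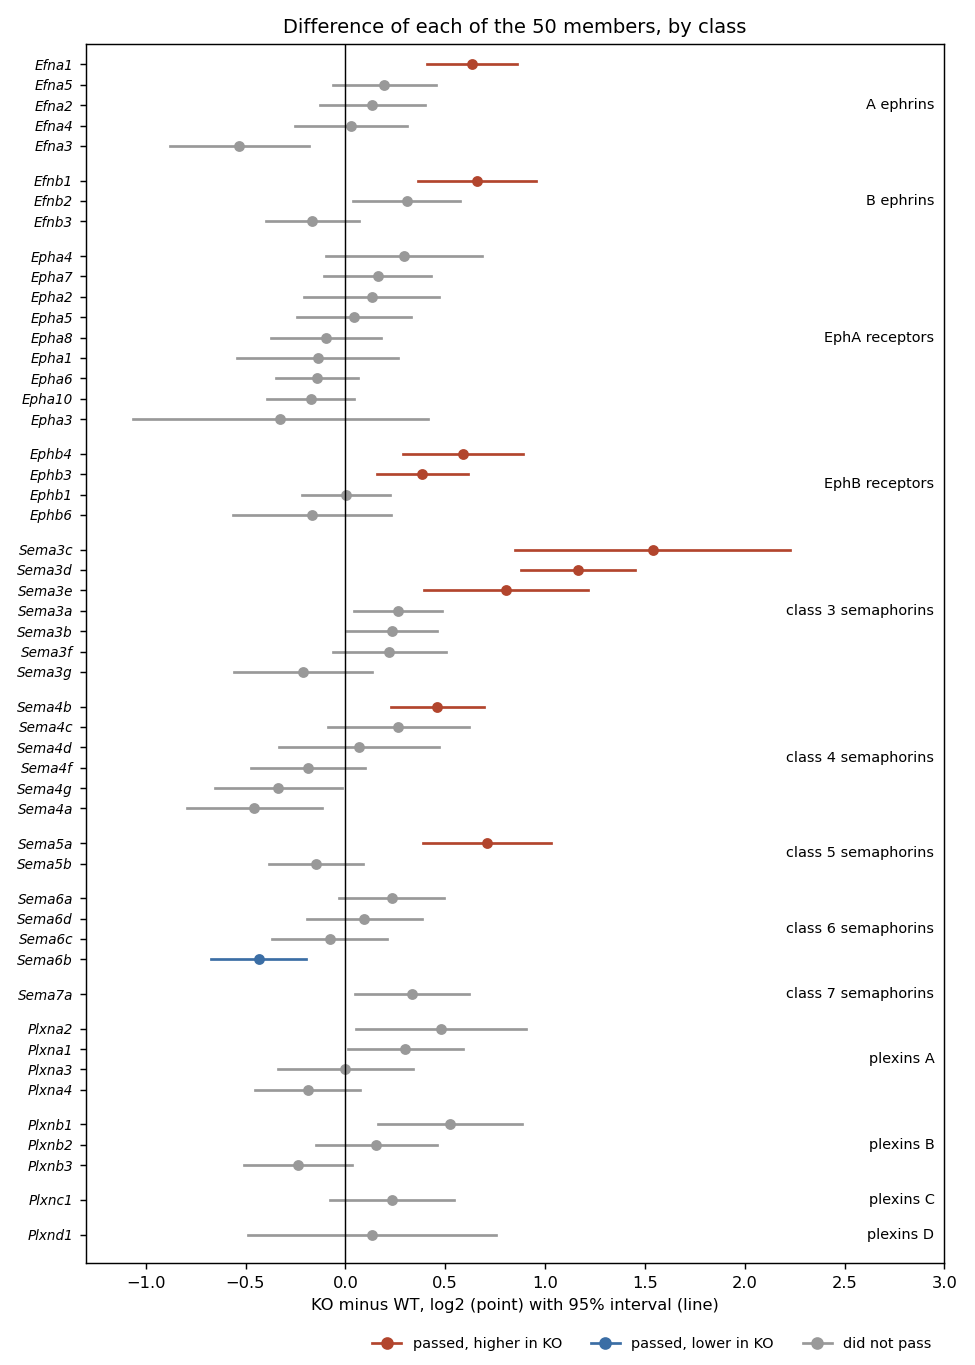
Difference of each of the 50 members (knockout minus wild type, log2, x axis) with its 95% interval, grouped by class down the page, with members that passed in colour. The class 3 semaphorins Sema3c (1.54) and Sema3d (1.16) lie farthest to the right, and 0 of the 9 EphA receptors and 0 of the 9 plexins passed.

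The arrays differed in what else they held. Adam10 itself had 6.92 ± 0.12 log2 intensity in knockout skin and 7.28 ± 0.15 in wild type (SD, n = 4 each), a difference of -0.36 (adjusted p = 0.064, exact two-sided permutation p = 0.0286, the smallest that 70 assignments allow). The deleted exons are not stated, so the probe set may lie outside them. Wild-type array 4, and less so array 3, carried dermal and muscle signal. The 7 fibroblast markers summed to 1020.5 to 1103 intensity units on knockout arrays and to 769 to 7195 on wild-type arrays, and the 8 blood endothelial markers to 63.6 to 74.6 and 65.1 to 390.2. None of the 12 marker lists read had a gene at 0, since every probe set has a positive intensity, and Cdh19 of the Schwann cell list was below the 25th percentile on all arrays. Basal keratinocyte markers moved with the genotype, as 6 of 7 rose and their summed level was 12883 to 14559 in knockout and 7637 to 10354 in wild type. Of 5 melanocyte markers 2 rose, Mlana by 1.01 (adjusted p = 0.0046) and Pmel by 0.66 (0.013), and the list summed to 467.5 to 777.6 in knockout and 304.3 to 473.3 in wild type. In whole samples, fewer cells of a type and less RNA per cell cannot be told apart. For the 9 members that rose, the part of these marker shifts in the rise was not tested. With wild-type arrays 3 and 4 left out, Sema3c, Sema3d and Efna1 still rose, the other 6 rises and the fall of Sema6b no longer passed, and Efna3 and Sema4a fell. The same members passed with the skeletal muscle marker mean as a covariate. With the basal keratinocyte marker mean as the covariate, a choice made after seeing the data, 0 of the 50 members and 7 of all 19935 genes passed. That mean did not overlap between the genotypes, with deviations of 0.29 to 0.55 in knockout and -0.82 to -0.20 in wild type. This fit could therefore hardly separate it from genotype, and the loss of calls alone does not show its part in the rises. The differences there were 2.32 for Sema3c, 0.68 for Efna1 and 0.59 for Sema3d. They were 0.19 for Ephb4, 0.17 for Efnb1, 0.05 for Sema5a, 0.03 for Sema4b, 0.02 for Ephb3, -0.12 for Sema3e and -0.24 for Sema6b.

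**Figure D2:**
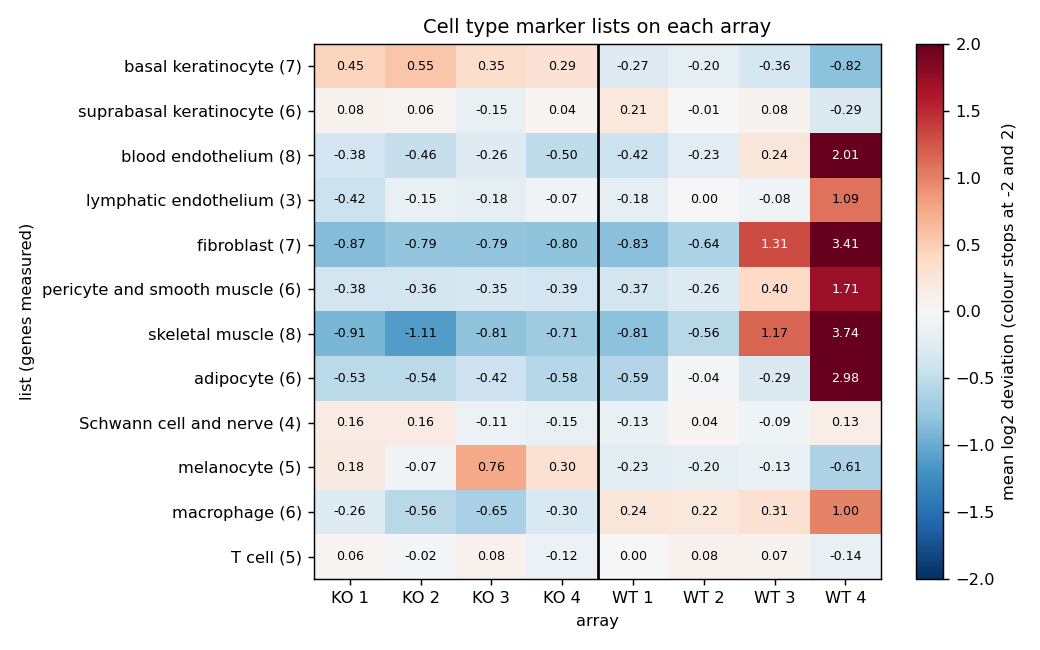
Mean log2 deviation from the mean of all 8 arrays for 12 cell type marker lists (rows, genes measured in brackets) on each array (columns, knockout left of the line). Wild-type array 4 is at 3.41 for fibroblast and 3.74 for skeletal muscle markers, and basal keratinocyte markers are above 0 on the 4 knockout arrays and below 0 on the 4 wild-type arrays.

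Promoter sequences are shown for the class 3 semaphorins that rose, for a ligand and a receptor of the B type that rose, and for the gene that fell, as examples of a secreted ligand, a membrane ligand, a receptor and the opposite direction. Each is the 250 bases before an annotated start, 5′ to 3′ on the strand of the gene, from RefSeq (GRCm38.p6), and capitals mark matches to the motifs described after them.
Sema3d (chr5:12382916-12383165, plus strand): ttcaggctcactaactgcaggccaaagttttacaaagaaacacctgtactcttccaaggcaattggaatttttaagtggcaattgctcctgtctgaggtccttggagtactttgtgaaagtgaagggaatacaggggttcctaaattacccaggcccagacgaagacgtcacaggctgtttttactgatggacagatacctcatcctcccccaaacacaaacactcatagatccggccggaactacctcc
Sema3e (chr5:14025026-14025275, plus strand): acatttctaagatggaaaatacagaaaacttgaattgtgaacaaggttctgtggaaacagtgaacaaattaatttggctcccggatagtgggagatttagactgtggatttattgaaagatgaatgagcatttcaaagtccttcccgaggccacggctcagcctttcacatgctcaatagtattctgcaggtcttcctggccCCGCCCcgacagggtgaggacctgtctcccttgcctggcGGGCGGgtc
Sema3c (chr5:17574566-17574815, plus strand): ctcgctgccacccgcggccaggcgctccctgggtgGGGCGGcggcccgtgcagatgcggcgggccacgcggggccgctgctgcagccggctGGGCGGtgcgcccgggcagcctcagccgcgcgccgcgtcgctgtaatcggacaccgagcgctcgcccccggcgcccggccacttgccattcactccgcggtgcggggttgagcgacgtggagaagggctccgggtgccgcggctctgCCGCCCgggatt
Efnb1 (chrX:99135811-99136060, plus strand): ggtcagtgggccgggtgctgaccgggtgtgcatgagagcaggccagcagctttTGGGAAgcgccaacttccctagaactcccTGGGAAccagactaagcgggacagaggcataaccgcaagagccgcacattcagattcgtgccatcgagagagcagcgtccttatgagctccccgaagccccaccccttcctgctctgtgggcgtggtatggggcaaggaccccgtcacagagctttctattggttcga
Ephb4 (chr5:137349859-137350108, plus strand): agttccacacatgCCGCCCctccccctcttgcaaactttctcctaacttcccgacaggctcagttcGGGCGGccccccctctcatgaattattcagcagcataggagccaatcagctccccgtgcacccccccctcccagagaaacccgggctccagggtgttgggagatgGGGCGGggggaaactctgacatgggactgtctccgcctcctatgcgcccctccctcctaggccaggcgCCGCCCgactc
Sema6b, upstream start (chr17:56140344-56140593, minus strand): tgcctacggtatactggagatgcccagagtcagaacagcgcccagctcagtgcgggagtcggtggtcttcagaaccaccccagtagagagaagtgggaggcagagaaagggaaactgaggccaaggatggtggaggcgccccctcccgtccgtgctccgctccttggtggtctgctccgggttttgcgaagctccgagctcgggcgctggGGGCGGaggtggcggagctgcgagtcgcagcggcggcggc
Sema6b, downstream start (chr17:56133853-56134102, minus strand): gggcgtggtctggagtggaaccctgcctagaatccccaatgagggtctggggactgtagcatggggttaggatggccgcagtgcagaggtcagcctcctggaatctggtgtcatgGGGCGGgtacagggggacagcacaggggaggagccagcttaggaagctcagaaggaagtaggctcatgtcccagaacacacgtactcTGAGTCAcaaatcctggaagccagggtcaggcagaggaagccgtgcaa

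Of the 50 members, 44 had a promoter in the RefSeq table, 58 promoters in all, among them 11 of the 9 genes that rose. The search covered both strands for the GC box bound by Sp1-type factors (GGGCGG), the core bound by the Notch effector RBPJ (TGGGAA), the AP-1 site (TGACTCA) and the E-box (CACGTG). Matches did not overlap in the sequences printed. The GC box stood in 81.8% of the promoters of members that rose and 73.3% of the promoters of members that did not pass, against 32.7% of all 32851 promoters. The RBPJ core stood in 18.2% and 20.0% of those promoters and in 21.6% of all. Efnb1 held it 2 times. The AP-1 site was in 0 of the 11 promoters of members that rose and in 4.46% of all promoters, and the downstream start of Sema6b held it. The E-box stood in 1 of those 11 promoters (9.09%), in 4.44% of the promoters of members that did not pass and in 6.02% of all. The promoter of Sema3d held 0 of these motifs and had 46.8% G and C, that of Sema3e 48.0% and that of Sema3c 78.4%. Member promoters had a median of 64.0% G and C, against 52.4% for all.

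Class 3 semaphorins, the secreted class, gave the largest rises. Of 7 measured, 3 rose and 0 fell. Sema3c, known for patterning the cardiac outflow tract and for binding neuropilins together with A-type or D-type plexins, had 7.70, 7.58, 7.31 and 6.50 log2 intensity on knockout arrays 1 to 4, against 5.77, 5.38, 5.25 and 6.52 on wild-type arrays 1 to 4. Knockout array 4 was the low one and wild-type array 4 the high one, and these 2 values alone made the genotypes overlap. The difference was 1.54 (SE 0.31, 2.91-fold, adjusted p = 0.016). It was 1.80 without wild-type array 4 (adjusted p = 0.0025), 1.69 without wild-type arrays 3 and 4 (0.013), and it missed the threshold without knockout array 2 (0.061) or wild-type array 3 (0.052).

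Sema3d, a neuropilin ligand known for vessel and heart patterning, had 6.69, 6.57, 6.33 and 6.26 on knockout arrays, against 5.32, 5.40, 5.43 and 5.04 on wild-type arrays. The genotypes were clearly apart, with a gap wider than the range within either. The difference was 1.16 (SE 0.13, 2.24-fold, adjusted p = 0.0016). It kept its call with each array left out in turn, where the adjusted p reached at most 0.011, and was 1.10 without wild-type arrays 3 and 4 (adjusted p = 0.0058). Sema3e, which binds Plxnd1 without a neuropilin and is known to repel endothelial cells, had 5.03, 5.34, 5.51 and 5.21 on knockout arrays, against 4.80, 4.68, 4.46 and 3.92 on wild-type arrays. The genotypes did not overlap, and wild-type array 4 was lowest. The difference was 0.80 (SE 0.19, adjusted p = 0.026). The call was lost without knockout array 2 (adjusted p = 0.088), 3 (0.076) or 4 (0.051) or wild-type array 3 (0.072), and without wild-type arrays 3 and 4 the difference was 0.53 (0.075).

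The other class 3 genes did not pass. Sema3a, the classic repellent of growing axons, differed by 0.26 (adjusted p = 0.13), Sema3b by 0.23, Sema3f by 0.22 and Sema3g by -0.21. In the RefSeq gene order of chromosome 5, Sema3d, Sema3a, Sema3e and Sema3c lie in a run of 22 protein-coding genes, of which 8 were measured. The 4 other genes measured there did not pass, at -0.23 for Speer3, -0.29 for Pclo, -0.59 for Cacna2d1 and 0.17 for Hgf, the ligand of the receptor Met. Those 4 were dim, with genotype means of 1.27 to 3.08 log2, below the array medians of 3.73 to 3.92. Genotype means of the 4 semaphorins of the run were 4.47 to 7.27. All 4 semaphorins had differences above 0 and 3 of them rose.

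**Figure D3:**
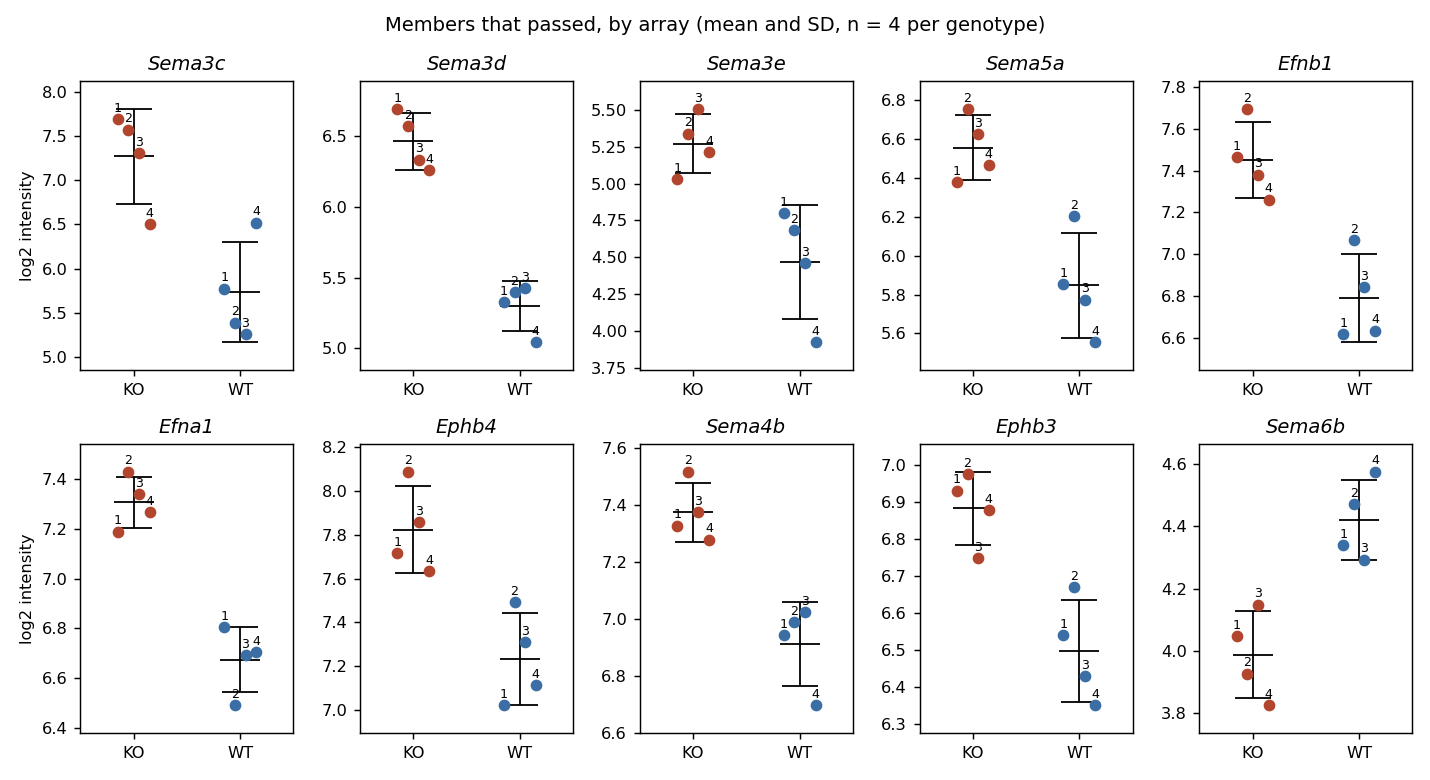
Log2 intensity (y axis, own scale in each panel) of the 10 members that passed, 1 point per array with its number, knockout left and wild type right, with mean and SD. The genotypes are apart in every panel except that of Sema3c, where knockout array 4 (6.50) lies just below wild-type array 4 (6.52).

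Among the membrane semaphorins of classes 4 to 7, 2 of 13 rose and 1 fell. Sema5a, a class 5 semaphorin with thrombospondin repeats, had 6.38, 6.76, 6.62 and 6.46 on knockout arrays, against 5.86, 6.20, 5.77 and 5.55 on wild-type arrays. All knockout values were above all wild-type values, with a difference of 0.71 (SE 0.14, adjusted p = 0.016). The call was lost without knockout array 2 (0.063) or 3 (0.053), wild-type array 3 (0.055) or wild-type arrays 3 and 4 (0.083, difference 0.53). Sema4b, a class 4 semaphorin with a PDZ-binding tail, had 7.33, 7.52, 7.37 and 7.28 on knockout arrays, against 6.94, 6.99, 7.02 and 6.70 on wild-type arrays. Wild-type array 4 was the lowest, and the genotypes did not overlap. The difference was 0.46 (SE 0.10, adjusted p = 0.025), and the call was lost without knockout array 1 (0.060), 2 (0.088) or 3 (0.065), wild-type array 3 (0.051) or wild-type arrays 3 and 4 (0.086), and after quantile normalization (0.056) and cyclic loess (0.064).

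Sema6b, a class 6 membrane semaphorin and ligand of Plxna4, was the 1 member that fell. It had 4.05, 3.93, 4.15 and 3.83 on knockout arrays, against 4.34, 4.47, 4.29 and 4.58 on wild-type arrays. All knockout values were below all wild-type values, and the levels lay close to the array medians of 3.73 to 3.92, where the signal is dim. The difference was -0.43 (SE 0.11, adjusted p = 0.034). Its 2 probe sets hold identical values and so give 1 measurement. The call was lost after median centring (0.0502), after quantile normalization (0.061), with the mean of Y-linked genes as a covariate (0.059), and without knockout array 1 (0.074), 2 (0.11) or 4 (0.072), wild-type array 2 (0.085), 3 (0.061) or 4 (0.051), or wild-type arrays 3 and 4 (0.11).

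The remaining membrane semaphorins included genes with values on either side of 0. Sema4a, a ligand of B-type plexins and of Plxnd1 with roles in T cell stimulation, had 6.93, 6.82, 6.69 and 7.16 on knockout arrays, against 7.60, 7.52, 7.33 and 6.98 on wild-type arrays. Knockout array 4 and wild-type array 4 made the genotypes overlap, and the difference of -0.46 did not pass (adjusted p = 0.094). Without wild-type array 4 it was -0.58 and passed (0.018), and without wild-type arrays 3 and 4 it was -0.66 (0.033). Sema4g differed by -0.34 (adjusted p = 0.17). Sema7a, the lipid-anchored ligand of Plxnc1, differed by 0.33 (adjusted p = 0.14). Sema4c, Sema4d, Sema4f, Sema5b, Sema6a, Sema6c and Sema6d differed by between -0.19 and 0.27, and all 7 of their 95% intervals included 0.

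Of 8 ephrins 2 rose and 0 fell. Efna1, a lipid-anchored ligand of EphA receptors such as Epha2, had 7.19, 7.43, 7.34 and 7.27 on knockout arrays, against 6.81, 6.49, 6.69 and 6.70 on wild-type arrays. The genotypes were apart and wild-type array 4 sat among the other wild-type arrays. The difference was 0.63 (SE 0.10, 1.55-fold, adjusted p = 0.0060). It kept its call with each array left out in turn, with adjusted p-values up to 0.028, and without wild-type arrays 3 and 4 (0.66, adjusted p = 0.025).

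Efna3, another A-type ephrin, ran the other way in sign. Its values were 7.57, 7.70, 7.24 and 7.32 on knockout arrays, against 8.11, 8.10, 8.18 and 7.57 on wild-type arrays. Wild-type arrays 1 to 3 were above all knockout arrays, and wild-type array 4 lay among the knockouts. The difference was -0.53 (SE 0.16) and did not pass (adjusted p = 0.063). Without wild-type array 4 it was -0.67 and passed (0.0086), and it also passed after quantile normalization (-0.63, adjusted p = 0.032) and cyclic loess (-0.66, adjusted p = 0.022). Efna1, Efna3 and Efna4 follow each other directly among the protein-coding genes of chromosome 3, and Efna4 differed by 0.03 (95% interval -0.25 to 0.31). Efna2 and Efna5 differed by 0.14 and 0.20, and neither passed.

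Efnb1, a membrane-spanning ligand of EphB receptors, had 7.47, 7.69, 7.38 and 7.26 on knockout arrays, against 6.62, 7.07, 6.84 and 6.63 on wild-type arrays. The lowest knockout value, on array 4, was above the highest wild-type value, on array 2. The difference was 0.66 (SE 0.13, 1.58-fold, adjusted p = 0.016), and the call was lost without knockout array 2 (0.058) or wild-type arrays 3 and 4 (0.070, difference 0.61). Efnb2, the arterial ligand of Ephb4, differed by 0.31 (adjusted p = 0.15), and Efnb3 by -0.17.

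Of the EphB receptors measured 2 of 4 rose, and of the EphA receptors 0 of 9 passed. Whether these 2 shares differ was not tested. Ephb4, a receptor of Efnb2 known from veins and also present in epithelium, had 7.72, 8.09, 7.86 and 7.63 on knockout arrays, against 7.02, 7.49, 7.31 and 7.11 on wild-type arrays. Array 2 was highest within each genotype, and the genotypes did not overlap. The difference was 0.59 (SE 0.14, 1.51-fold, adjusted p = 0.026). Calls were lost without knockout array 1 (0.054), 2 (0.087) or 3 (0.071), wild-type array 3 (0.062) or wild-type arrays 3 and 4 (0.095, difference 0.57), and after quantile normalization (0.065) and cyclic loess (0.075).

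Ephb3, another receptor of B-type ephrins, had 6.93, 6.98, 6.75 and 6.88 on knockout arrays, against 6.54, 6.67, 6.43 and 6.35 on wild-type arrays. The genotypes did not overlap, by a narrow gap. The difference was 0.39 (SE 0.10, adjusted p = 0.044). Among the 8 fits with 1 array left out it passed in 1, without wild-type array 2 (0.045), and reached 0.13 without knockout array 2. It did not pass without wild-type arrays 3 and 4 (0.24, difference 0.28), after quantile normalization (0.12), after cyclic loess (0.13) or with the mean of Y-linked genes as a covariate (0.074). Ephb6, which lacks kinase activity, differed by -0.17, and Ephb1 by 0.0034.

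The EphA receptors gave differences from -0.33 to 0.29, and all 9 of their 95% intervals included 0. Epha2 is an EphA receptor of keratinocytes and a receptor of Efna1. It had 6.53, 6.41, 6.18 and 6.49 on knockout arrays, against 6.37, 6.43, 6.45 and 5.81 on wild-type arrays. The genotypes overlapped, with wild-type array 4 far below the rest, and the difference was 0.13 (95% interval -0.21 to 0.47). Epha1 differed by -0.14 and Epha4 by 0.29, and each was also lowest on wild-type array 4. Epha3 ran the other way, with 2.39 to 2.74 on knockout arrays, against 2.35 to 2.75 on wild-type arrays 1 to 3 and 4.16 on wild-type array 4. Epha5, Epha6 and Epha7 lay below the array median on all 8 arrays, and Epha5 below the 25th percentile on 4 of them, so these 3 were dim. Epha3 was above the array median on 1 array only. Epha8 (means 4.04 in knockout and 4.13 in wild type) and Epha10 (4.00 and 4.17) lay close to the array medians of 3.73 to 3.92.

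Plexins, the receptors of semaphorins, gave 0 calls among 9, with 3 at an unadjusted p under 0.05, which 5008 of all 19935 genes reached. Plxnb1, a receptor of Sema4d that associates with Met, had 6.84, 7.03, 6.65 and 6.78 on knockout arrays, against 6.46, 6.64, 6.26 and 5.85 on wild-type arrays. All knockout values were above all wild-type values, but wild-type array 4 was low, and the difference of 0.52 did not pass (SE 0.16, adjusted p = 0.0755). Without wild-type arrays 3 and 4 it was 0.28 (0.30). Genotypes did not overlap in 9 members toward higher values, where 12.2% of all genes did so, and in 1 toward lower values, where 5.86% did (18.1% in either direction). Of the 9 members toward higher values, Plxnb1 was the 1 that had not passed.

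Plexins and neuropilins known to bind the semaphorins that rose did not pass. Plxnd1, the receptor of Sema3e and an endothelial plexin, had 4.63, 4.93, 4.56 and 5.01 on knockout arrays, against 4.14, 4.53, 4.31 and 5.62 on wild-type arrays. The highest value of all 8 was on wild-type array 4, which also held the most endothelial signal. The difference was 0.13 (95% interval -0.49 to 0.75). Plxna2 differed by 0.48 (adjusted p = 0.15) and Plxna1 by 0.30 (0.18). The neuropilin Nrp1 had 4.62 ± 0.25 in knockout skin and 4.62 ± 0.71 in wild type, and Nrp2 had 6.43 ± 0.23 and 6.36 ± 0.19 (log2, SD, n = 4 each), and neither passed. Plxna4, the receptor of Sema6b, differed by -0.19. Plxna3, Plxnb2, Plxnb3 and Plxnc1 differed by between -0.24 and 0.23.

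**Figure D4:**
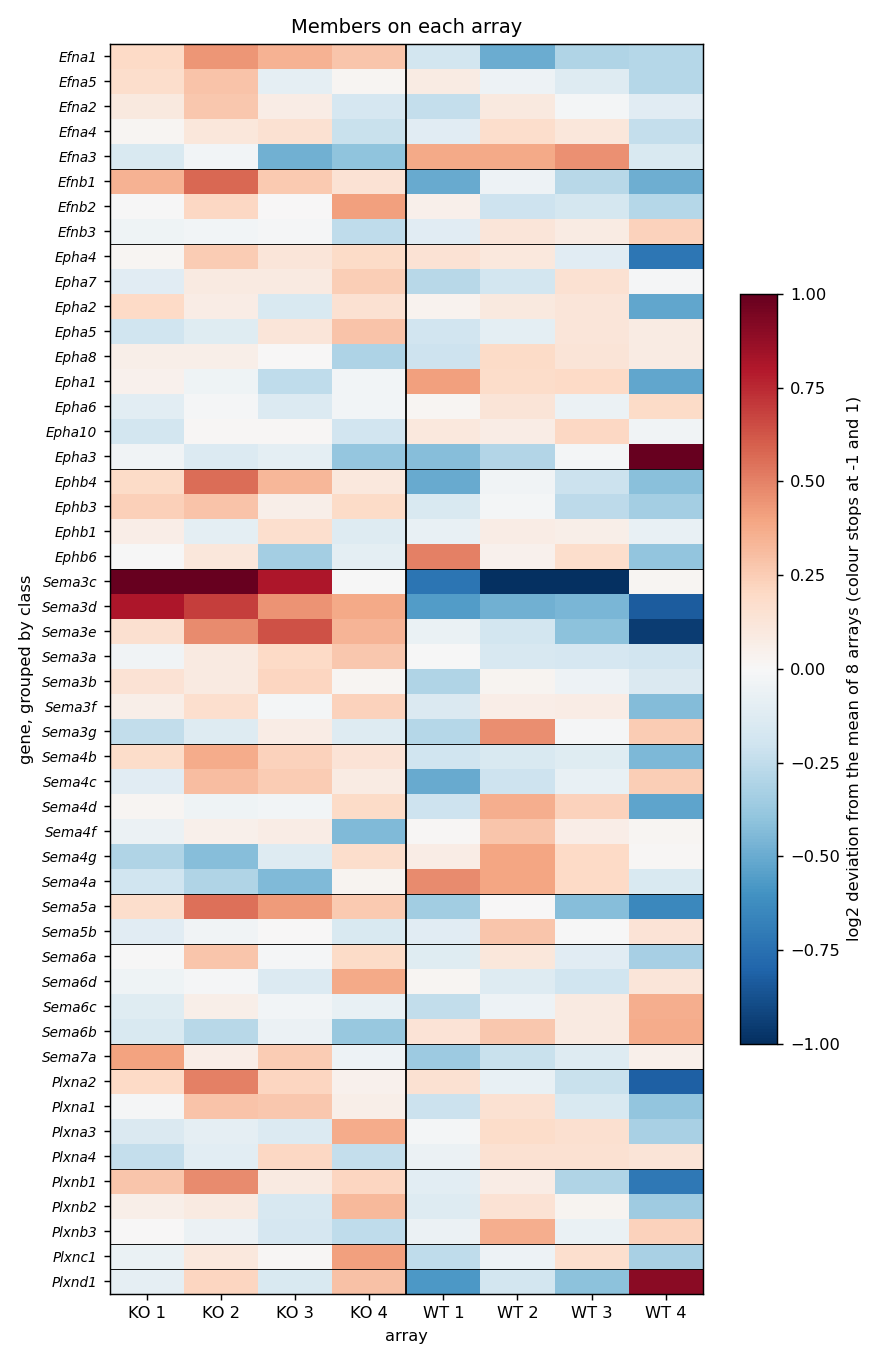
Log2 deviation of each member (rows, by class) from its mean over all 8 arrays, on each array (columns, knockout left of the line), with colour stopping at -1 and 1. Sema3c, Sema3d and Sema3e are the darkest block toward higher knockout values, and wild-type array 4 is low for Epha4, Plxna2 and Plxnb1 and high for Epha3 and Plxnd1.

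Across members, wild-type array 4 was the least typical. It was the lowest of the 8 arrays for 22 of 50 members, and it lay below wild-type arrays 1 to 3 for 27 members and above them for 10. Plxnd1 was 1.29 above the mean of wild-type arrays 1 to 3 there, Epha3 was 1.63 above and Sema3c 1.05 above. Epha1 was 0.79 below that mean (-0.79), Plxna2 -0.77, Epha4 -0.77 and Sema3e -0.73. Knockout array 2 was the highest of all 8 for 14 members. The range within a genotype had a median of 0.38 over the members in knockout and 0.44 in wild type, or 0.30 over wild-type arrays 1 to 3. Leaving out any array can only keep or shrink a range, so 0.30 is not a like measure to 0.38 and 0.44.

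**Figure D5:**
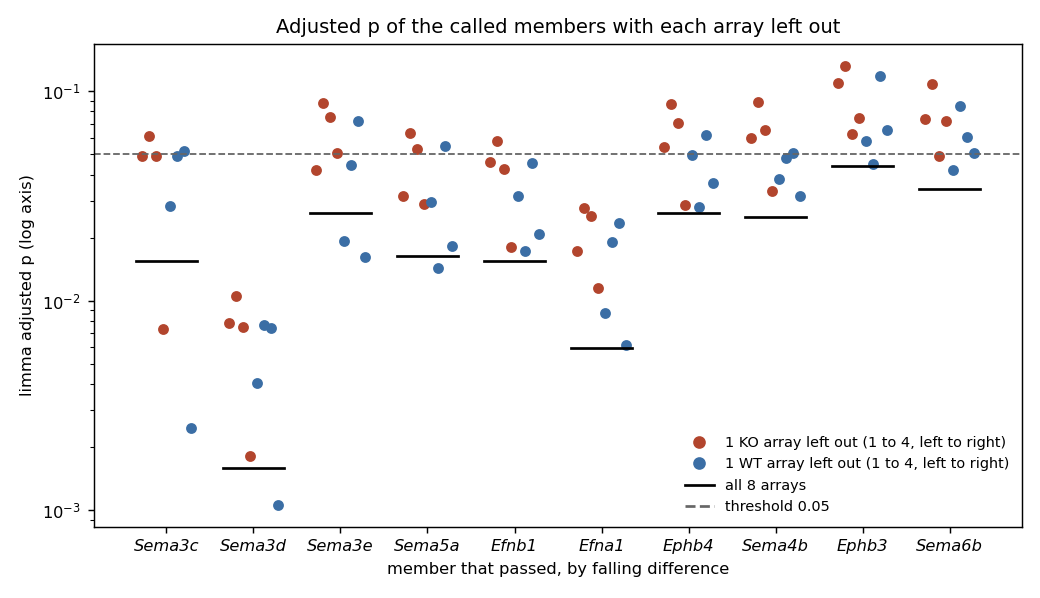
Limma adjusted p (log axis) of the 10 members that passed, with 1 array left out at a time (points, knockout arrays left of wild-type arrays) and with all 8 arrays (black line); the dashed line is the threshold. Sema3d and Efna1 stay under it in all 8 fits, and the other 8 members are above it at least without knockout array 2. Without that array 587 of all 19935 genes passed, against 1744 with all 8 arrays.

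Partners of these families were read from lists put together with earlier results known. Among 41 coreceptors and effectors of semaphorins and plexins 7 rose (17.1%) and 2 fell (4.88%), with a median difference of 0.10. Of all genes tested 6.41% rose and 2.34% fell. Among genes above the array median on all arrays 10.9% rose and 3.06% fell, with a median difference of 0.09. Met, the HGF receptor that pairs with B-type plexins, had 7.40, 7.60, 7.48 and 7.23 on knockout arrays, against 6.39, 5.99, 5.99 and 6.004 on wild-type arrays. The genotypes were far apart, with a difference of 1.33 (SE 0.12, 2.52-fold, adjusted p = 0.00088). Cfl1, the actin-severing cofilin, rose by 0.62 (adjusted p = 0.0058), and Ptk7, a kinase-dead receptor of planar polarity, by 0.54 (0.011). Met, Cfl1 and Ptk7 kept their calls with each array left out. The integrin chain Itgb1 (0.89), Mical1 (0.36), an actin-oxidizing enzyme that binds plexins, and the GTPase Rac1 (0.34) also rose. The call of Itgb1 was lost without knockout array 1, 2 or 3 or wild-type array 2 or 3 (highest adjusted p 0.079, without knockout array 2). Mical1 kept its call only without wild-type array 1 (highest 0.11, without knockout array 2), and Rac1 lost it in all 8 such fits (highest 0.13, without wild-type array 3).

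The kinase Fer and the adaptor Tyrobp fell. Fer, tied to A-type plexins, differed by -0.51 (adjusted p = 0.016) and lost its call without knockout array 1, 2 or 3 or wild-type array 3 (highest 0.056). Tyrobp, a myeloid adaptor that acts with Plxna1 and Trem2 in dendritic cells, differed by -0.94 (adjusted p = 0.017) and lost its call without knockout array 1 or 2 (highest 0.059). Of 6 macrophage markers 3 also fell, with summed levels of 140.3 to 189.8 intensity units in knockout and 267.2 to 408.2 in wild type; their part in the fall of Tyrobp was not tested.

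Among 41 effectors of Eph receptors and ephrins 4 rose (9.76%) and 0 fell, against 6.41% and 2.34% of all genes tested and 10.9% higher among genes above the array median on all arrays, with a median of 0.06. They were Abl2 (0.62, adjusted p = 0.030), a kinase that remodels actin, the adaptors Grb7 (0.54, 0.0064) and Nck2 (0.35, 0.042), and Sdcbp (0.53, 0.026), a PDZ protein that binds the tails of B-type ephrins. Grb7 kept its call with each array left out. Abl2 lost it without any of the 4 knockout arrays or wild-type array 2 (highest 0.086, without knockout array 1). Sdcbp lost it without knockout array 1, 2 or 3 or wild-type array 2 or 3 (highest 0.079, without knockout array 2), and Nck2 kept it only without wild-type array 4 (highest 0.11, without knockout array 1). A list of other guidance genes held Slits, Robos, netrins and their receptors, RGMs, Flrt and Srgap genes, Dscam and Draxin. There 0 of 28 genes passed in limma in either direction, and the median was -0.07. An unadjusted p under 0.05 was reached by 4 of these 28 and by 5008 of all 19935 genes.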

How the data were processed

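Gene expression was measured on Affymetrix Mouse Gene 1.0 arrays. The deposited intensity values, 1 per probe set and array, came from RMA, a multi-array summary method that the submitters' processing notes name without version or settings. They ran from 0.8167 to 11173, so they were read as linear and log2 was taken with no pseudocount. Detection calls and scan batches were not used here. Of 35519 probe sets, 21780 had exactly 1 gene symbol in the platform annotation, 1605 had several and 12134 had none. The probe set with the highest mean was kept for each gene, which left 19935 genes, with no filter on dim ones. All 50 members kept their symbol in RefSeq (GRCm38.p6), through their Entrez numbers. Genotypes were compared in limma 3.58.1 (R 4.3.3, lmFit and eBayes, two-sided), with Benjamini-Hochberg adjustment over the 19935 genes and a threshold of 0.05. Every adjusted p-value in the text is from this fit unless a setting is named, and intervals are limma's 95% intervals. The labels do not say that each sample came from a separate animal, so p-values measure the spread between these samples. The number of arrays limits the precision.

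Members and gene lists were chosen with earlier results of these data known. Every member that passed is named, then members whose genotypes did not overlap, members with an unadjusted p under 0.05, ligands or receptors of named members, and partner genes that passed, of which 1 is counted but not reported by name here. Promoter sequences and gene order come from RefSeq (GRCm38.p6). The fit was repeated with 3 other scalings (cyclic loess, quantile, median centring), without dim genes, with probe sets averaged per gene, with 16 added before log2, with array weights, with limma's trended robust prior, at thresholds of 0.01 and 0.10, with covariates, and with arrays left out. The basal keratinocyte covariate was added after the data were seen.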

Additional observations from a re-analysis of the deposited data

Results flagged for a closer look

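In 8 of 102 groups of 4 arrays (the 50 members and Adam10, each genotype apart) 1 array lay far from the other 3 by Dixon's gap test; chance gives about 5%, or 1 in 20 groups. Values are log2 intensities. On wild-type array 4, Efna3 was at 7.57 against 8.10 to 8.18 on the other wild-type arrays, and Epha2 at 5.81 against 6.37 to 6.45. Knockout array 4 had Efnb3 at 4.35 against 4.56 to 4.59 on the other knockout arrays, Epha8 at 3.78 against 4.09 to 4.15, and Plxna3 at 5.98 against 5.46 to 5.52. On wild-type array 1, Plxna4 was at 4.07 against 4.25 to 4.28 and Sema3a at 5.49 against 5.30 to 5.33. Adam10 on wild-type array 3 was at 7.06 against 7.33 to 7.39.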

How the results depend on the processing

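Of the 9 members higher and 1 lower in knockout, 2 and 0 remained at an adjusted p under 0.01. At 0.10, 10 and 3 passed, and with array weights 12 and 4. The shares of all genes higher and lower were 6.41% and 2.34% in the main fit. They were 1.76% and 0.642% at 0.01, 10.3% and 4.5% at 0.10, and 12.1% and 6.1% with array weights. Member counts were 3 and 2 without wild-type arrays 3 and 4, where 2.96% and 1.68% of all genes passed higher and lower. With the muscle marker mean as a covariate they were also 3 and 2 (3.88% and 2.07% of all genes). They were 6 and 2 after quantile normalization (4.25% and 2.49%) and 6 and 3 after cyclic loess (3.86% and 2.92%). Median centring gave 13 and 0 members (12.3% and 1.43%), and a trended and robust prior 9 and 2 (7.56% and 2.71%). With dim genes left out, 10 and 2 of 43 members passed, against 14.8% and 4.99% of the 12085 genes tested. With 1 array left out the member counts ran from 2 to 9 and from 0 to 2. The shares of all genes then ran from 2.14% to 7.11% higher and from 0.808% to 3.25% lower. With the basal keratinocyte marker mean as a covariate 0 and 0 members passed, and 7 of all 19935 genes. That mean did not overlap between the genotypes, so this fit could hardly separate the 2. Sema3e (-0.12), Plxna1 (-0.21), Plxna2 (-0.68), Plxnb1 (-0.44) and Tyrobp (0.20) changed sign there, none past the threshold. Among the differences as large or larger there were Sema3c (2.32), Efna1 (0.68), Efna3 (-1.40), Itgb1 (1.78), Ptk7 (0.57), Fer (-0.75), Nck2 (0.65) and Grb7 (0.55), none past it either. The cause was not tested. Adam10 passed after quantile normalization (-0.46), after cyclic loess (-0.49), with dim genes left out, with a trended and robust prior or at a threshold of 0.10 (each -0.36), and with log2 of the value plus 16 (-0.32). It ran from -0.43 to -0.32 with 1 array left out.

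The semaphorin and plexin partners, 7 higher and 2 lower, numbered 4 and 2 after cyclic loess, 11 and 3 with array weights, 3 and 0 at a threshold of 0.01, 0 and 0 with the basal covariate, and 7 and 3 with the muscle covariate. With 1 array left out they ran from 4 to 7 and from 0 to 3. The Eph and ephrin effectors, 4 higher and 0 lower, numbered 1, 11 and 2 higher after quantile normalization, median centring and cyclic loess, 7 with dim genes left out or a trended prior, 9 with log2 of the value plus 16 or at 0.10, 12 with array weights, 1 at 0.01, 2 without wild-type arrays 3 and 4 and 0 with the basal covariate. They had 1 lower with dim genes left out, log2 of the value plus 16, array weights or the threshold of 0.10, and ran from 1 to 4 higher with 1 array left out. The list of other guidance genes (Slits, Robos, netrins, RGMs and the rest named above) gave 1 higher after median centring, and 1 higher and 1 lower with array weights.

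With 4 arrays per genotype and detection calls not used here, signal over background was not measured, and 6 of the 50 members lay below the array median on all arrays.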
